A study of Homo sapiens with 6 samples.

Results

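The simple keratins KRT7, KRT8, KRT18 and KRT19 were described in human umbilical vein endothelial cells, in which keratins are a minor part of the cytoskeleton next to vimentin. Their members were all probe sets that the platform annotation assigns to exactly 1 of these 4 symbols, which gave 8 of the 54613 probe sets tested. KRT7 had 4 probe sets, KRT19 had 2, and KRT8 and KRT18 had 1 each. No probe set that names a member together with another gene was found. The cells, called HUVECs, are primary endothelium of the umbilical vein, bought from a supplier and grown with serum and growth factors. They were transiently transfected with an siRNA that targets ANRIL, a long noncoding RNA, or with a scrambled sequence as control, and 3 Affymetrix arrays were hybridised per group, each from its own transfected sample. A single duplex against ANRIL is named, so effects of that duplex and of loss of ANRIL cannot be told apart. Whether the 3 samples of a group came from separate donors is not given in the sources used here, and the p-values then measure only the spread between these samples. All values are log2 intensities after RMA, a method that corrects background, equalises the distributions of the arrays and gives 1 value per probe set. Differences are ANRIL siRNA minus control siRNA.

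Keratins are intermediate filament proteins that assemble only as pairs of a type I and a type II chain. KRT8 and KRT7 are type II chains, and KRT18 and KRT19 are type I chains. KRT8 and KRT18 are the first keratins made in the embryo and the standard pair of simple, single-layered epithelia, where keratin filaments anchor to desmosomes and protect cells against mechanical and metabolic stress. KRT7 accompanies them in ducts, amnion and mesothelium. KRT19 is the smallest keratin and lacks the tail domain of the others. Cultured endothelial cells are known to hold some transcripts of simple keratins although vimentin is their main intermediate filament protein.

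None of the 4 keratins passed the test, which is a limma fit over all probe sets with p-values adjusted by the Benjamini-Hochberg method and a threshold of 0.05. That fit called 0 of 54613 probe sets (0%), so the absence of a call for the keratins is no different from any other gene. At an unadjusted p under 0.05, 2 of the 8 keratin probe sets were lower and 0 were higher, while 6.14% of all probe sets were lower and 8.96% higher at that level. Both were the brightest probe sets of the type I chains, KRT18 and KRT19, at 13% and 15% less signal with ANRIL siRNA. At their brightest probe sets the type II chains KRT7 and KRT8 differed by less than the spread between arrays.

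Other facts of the arrays bear on these values. The array medians of the deposited values differed by group. Control medians ran from 6.14 to 6.178, whereas those of the ANRIL siRNA arrays were all higher, from 6.185 to 6.23. The deposited distributions were thus not identical, and the cause of this shift was not tested. ANRIL, listed as CDKN2B-AS1, was read near the floor of the array, at 4.08, 4.05 and 3.95 in the controls and 3.69, 4.05 and 4.05 in the ANRIL siRNA arrays, so the knockdown could not be checked. The endothelial label was borne out by its markers, since 11 of 14, such as VWF, PECAM1 and CDH5, lay in the brightest decile. Of all 19775 genes, 3599 did so. All 14 lay above 6.18, the median signal over all probe sets. At their brightest probe sets 13021 of all 19775 genes did so, which is the base for such counts below. The difference between 3' and 5' probe sets of ACTB, a measure of RNA integrity, was 0.72 ± 0.13 (SD, n = 3) with ANRIL siRNA and 0.54 ± 0.05 with control siRNA (exact permutation p = 0.2, two-sided; the design cannot go below 0.1). For GAPDH the 3' minus 5' difference was higher by 0.06 with ANRIL siRNA (exact permutation p = 0.1). The part of RNA integrity in the keratin differences was not tested.

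KRT18, the type I partner of KRT8, was read by 1 probe set in the brightest decile of the array. The control arrays gave log2 values of 11.71, 11.81 and 11.73, and the ANRIL siRNA arrays gave 11.55, 11.57 and 11.54. All 3 ANRIL siRNA arrays lay below all 3 control arrays, and they lay within 0.03 of each other. The group means were 11.75 ± 0.06 and 11.55 ± 0.02 (SD, n = 3 each). The difference was −0.20 ± 0.06 (SE, 95% interval −0.34 to −0.05), a 1.15-fold lower signal, and the adjusted p in the limma fit was 0.243. The exact permutation p over the 6 arrays was 0.1, the smallest that 3 against 3 arrays allow.

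KRT19, the keratin without a tail domain, was read by a bright and a dim probe set. The bright probe set, 201650_at, had values of 9.32, 9.48 and 9.56 in the controls and 9.18, 9.28 and 9.20 in the ANRIL siRNA arrays. The groups did not overlap, but the gap between the lowest control and the highest ANRIL siRNA array was narrow and the controls were the more spread. The difference was −0.23 ± 0.08 (SE, 95% interval −0.41 to −0.06, n = 3 per group, limma adjusted p = 0.252), which is 1.17-fold. The dim probe set, 228491_at, lay in decile 4 of mean signal, with 5.55, 5.42 and 5.30 in the controls and 5.31, 5.38 and 5.56 with ANRIL siRNA. Its groups overlapped fully and its difference was −0.00 ± 0.09 (95% interval −0.20 to 0.20). The lower KRT19 signal was thus seen at 1 of its 2 probe sets, and at a signal below the array median the other gave no measurable difference.

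KRT8, the type II partner of KRT18, gave 7.63, 7.89 and 7.73 in the controls and 7.60, 7.90 and 7.66 in the ANRIL siRNA arrays. The groups had nearly the same range, and in each group the array numbered 2 was the highest. The difference was −0.03 ± 0.10 (SE, 95% interval −0.24 to 0.19, n = 3 per group, limma adjusted p = 0.912). These data do not show that KRT8 was unaffected, since values below 0 lie within the interval. The residual SD of KRT8 was 0.145, against a median of 0.084 over the probe sets of its signal decile, whereas that of KRT18 was 0.042 against 0.059. In this fit, which has no replicate term, KRT8 was the least precisely measured of the brightest probe sets of the 4 keratins. Its sign turned to 0.04 without control replicate 2, to 0.03 without ANRIL siRNA replicate 1 and to 0.00 without ANRIL siRNA replicate 3.

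KRT7, the type II keratin of ducts and amnion, was read by 4 probe sets that did not move alike. The brightest, 209016_s_at, had 9.81, 9.89 and 9.97 in the controls and 9.77, 9.97 and 9.76 in the ANRIL siRNA arrays. ANRIL siRNA replicate 2 stood with the highest control, and the other two lay below all controls. The difference was −0.06 ± 0.08 (SE, 95% interval −0.23 to 0.12, n = 3 per group, limma adjusted p = 0.752), and its sign turned to 0.02 both with cyclic loess and with quantile normalization repeated on the probe set values. The second probe set, 1558393_at, had 7.55, 7.50 and 7.51 in the controls and 7.61, 7.59 and 7.67 with ANRIL siRNA. Here every ANRIL siRNA array lay above every control, with a difference of 0.10 ± 0.06 (adjusted p = 0.455), in a decile where the median difference was −0.03. The remaining probe sets were below the array median, with differences of 0.03 ± 0.07 for 214031_s_at, whose sign turned to −0.03 with either of those scalings, and −0.01 ± 0.07 for 1558394_s_at. In RefSeq the antisense gene KRT7-AS and also KRT87P and TMT1AP1 overlap the span of KRT7, and which transcripts 1558393_at reads was not analysed here.

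**Figure D1:**
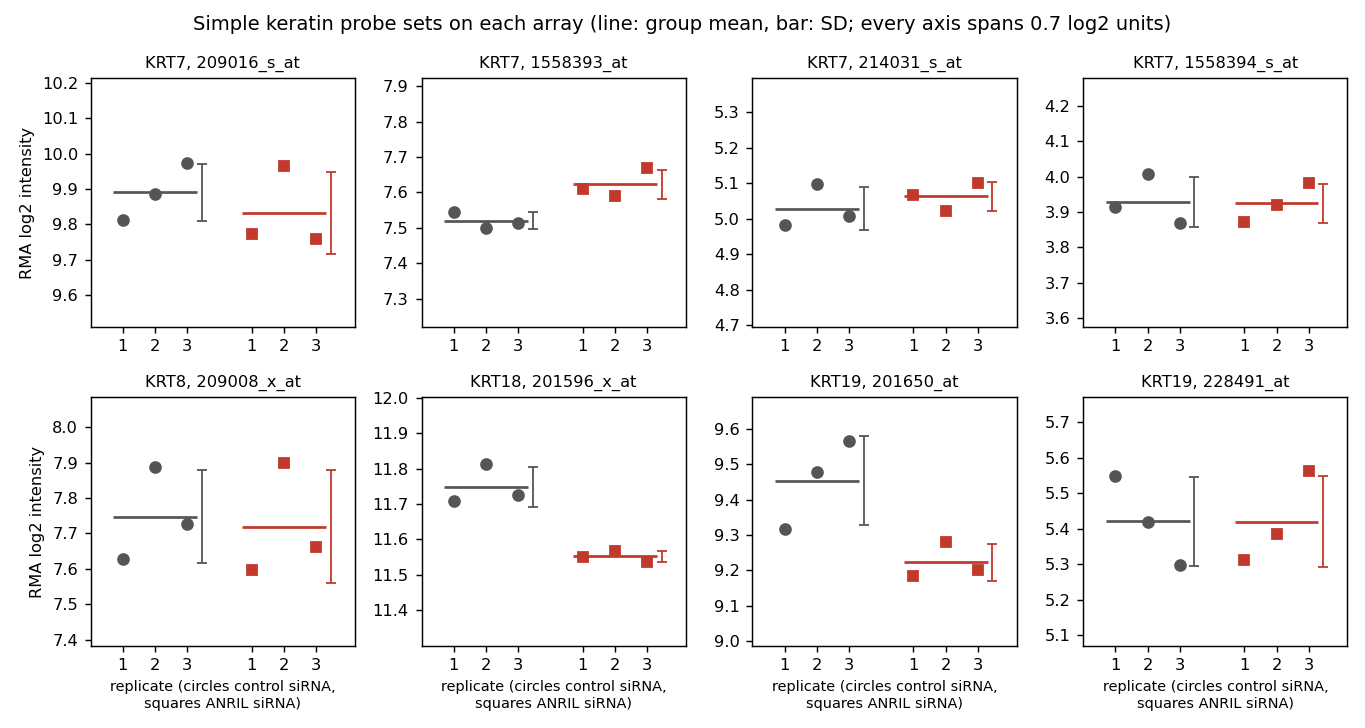
Each panel plots the RMA log2 intensity of 1 simple keratin probe set on the 6 arrays, with circles for control siRNA, squares for ANRIL siRNA, a line at the group mean and a bar of 1 SD; every vertical axis spans 0.7 log2 units. The squares lie below all circles for KRT18 and for KRT19 at 201650_at and above all circles for KRT7 at 1558393_at. In the other 5 panels the ranges of squares and circles overlap.

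Of the 8 probe sets, 2 had all ANRIL siRNA arrays below all controls and 1 had them all above. Among all probe sets 9.97% were without overlap and lower and 11.0% were without overlap and higher. By the brightest probe set of each gene all 4 keratins were below 0, with a median of −0.13, against a median of −0.00 over 19775 genes. Cyclic loess brought the median of the 4 to −0.07, and quantile normalization repeated on the probe set values to −0.06, against 0.01 over all genes with either. The sign depends on the scaling for KRT7. KRT8 and KRT18 are neighbours on chromosome 12 whose gene spans overlap in RefSeq (GRCh38.p14), KRT7 lies on the same chromosome in the type II cluster, and KRT19 lies on chromosome 17 in the type I cluster.

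KRT8 and KRT18 are also known for many processed copies of their transcripts in the genome. RefSeq lists 52 pseudogenes named for KRT8, 68 named for KRT18, 5 for KRT19 and 0 for KRT7. The sole probe sets of KRT8 and KRT18 both end in _x_at, the manufacturer's mark for probes that may also match other transcripts. Their values may therefore include near-identical copies, and the part of such copies was not tested.

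The difference of a probe set went with its signal on these arrays. In the brightest decile, which holds KRT18 and the brightest KRT7 probe set, 87.1% of probe sets were below 0 and the median difference was −0.08. In decile 9, which holds 201650_at of KRT19, 79.3% were below 0 and the median was −0.07. In decile 8, with KRT8, the median was −0.03, and in decile 4, with the dim KRT19 probe set, it was 0.06. The brightest KRT7 probe set, at −0.06, and KRT8, at −0.03, thus lay at or near the medians of their deciles. KRT18 at −0.20 and KRT19 at −0.23 lay below the lower quartile of theirs, which was −0.13 in both. In decile 10, 34.8% of probe sets had all ANRIL siRNA arrays below all controls, and in decile 9 24.9% did, so a lack of overlap in that direction was common at this signal.

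**Figure D2:**
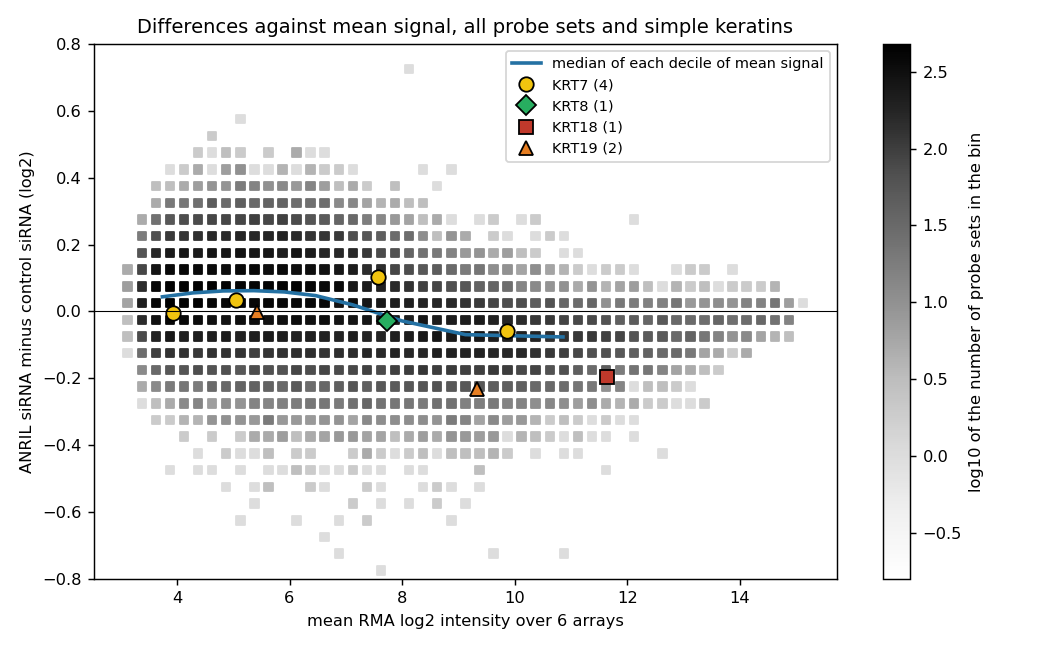
The difference of each probe set (ANRIL siRNA minus control siRNA, log2) is plotted against its mean RMA log2 intensity over 6 arrays; grey squares show how many of the 54613 probe sets fall in each bin, the line joins the decile medians and the coloured symbols are the 8 keratin probe sets. The line falls from 0.06 in decile 4 to −0.08 in decile 10; KRT18 at −0.20 and the brighter KRT19 probe set at −0.23 lie below it, and KRT8 and the brightest KRT7 probe set lie close to it.

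Scalings that remove this trend reduced both type I differences. After cyclic loess KRT18 was at −0.12 ± 0.05 (SE, 95% interval −0.24 to 0.01, limma adjusted p = 0.457) and KRT19 at −0.16 ± 0.07 (−0.32 to −0.00, adjusted p = 0.435). After repeated quantile normalization they were at −0.10 ± 0.05 and −0.15 ± 0.07. The KRT18 arrays still did not overlap, with 11.69, 11.74 and 11.70 in the controls and 11.60, 11.57 and 11.61 with ANRIL siRNA after cyclic loess. The same held for KRT19, where 9.31, 9.41 and 9.54 stood against 9.23, 9.28 and 9.27. KRT18 passed with an intensity-trended robust prior, which lets dim and bright probe sets have different typical variances. Its limma adjusted p was then 0.0494, and KRT19 did not pass (0.112). That prior called 0.577% of all probe sets lower and 0.0531% higher. The KRT18 call was lost when the trended prior was used after cyclic loess (adjusted p = 0.172) or without any 1 array except ANRIL siRNA replicate 2, with adjusted p-values of 0.0379 to 0.274 over the 6 arrays left out.

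**Figure D3:**
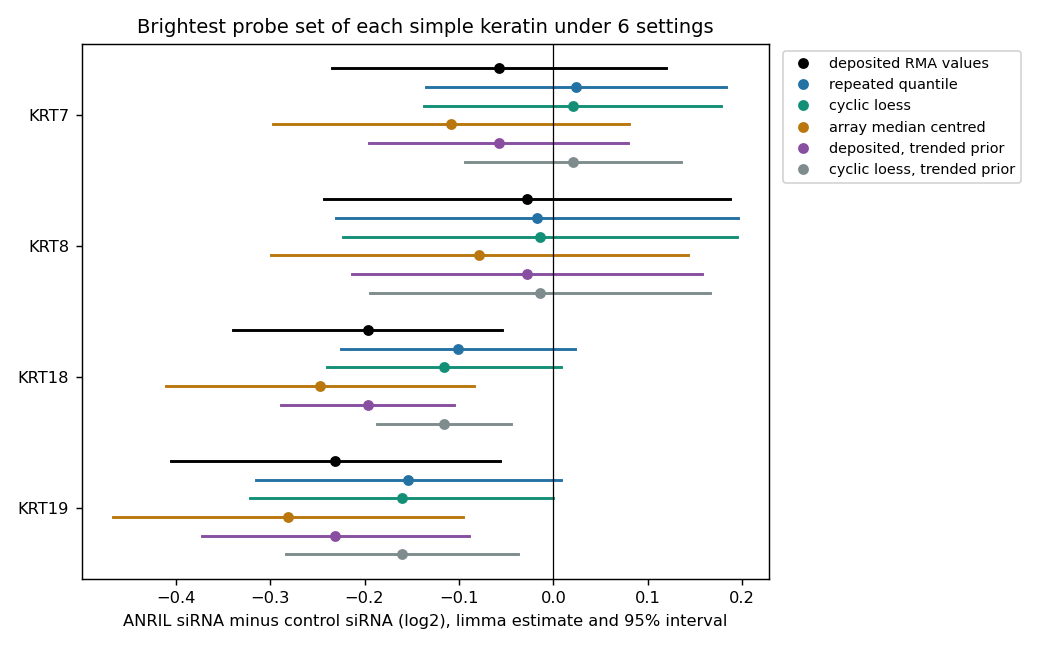
For the brightest probe set of each simple keratin, points give the difference between ANRIL siRNA and control siRNA on the log2 scale and lines its 95% interval from limma, with 3 arrays per group, under 6 settings of scaling and prior. KRT18 and KRT19 stay below 0 in all 6, from −0.10 to −0.25 and from −0.15 to −0.28, while KRT7 lies on both sides of 0 and KRT8 near it. The trended prior changes the interval and not the point, so its settings repeat the difference of the same scaling.

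The other keratins, which mark stratified epithelia, hair and glands, were more often above 0 than below in the deposited values. Of 50 listed, 39 were measured, 13 of them above the median signal, and 0 passed (limma, all probe sets). Of the 39, 27 were above 0 and 12 below, with a median of 0.07 that shrank to 0.02 with cyclic loess and with repeated quantile normalization. At an unadjusted p under 0.05, 6 were higher and 2 lower, and over all 19775 genes 8.42% were higher and 6.73% lower at that level. KRT10, the type I chain of the upper epidermis and the only other keratin in the brightest decile, was at −0.06 ± 0.06 and turned to 0.02 after cyclic loess. KRT80, a widely expressed type II keratin, was at −0.05 ± 0.08, KRT4, a keratin of mucosal epithelia, at 0.07 ± 0.07, and KRT9, the keratin of palm and sole epidermis, at 0.13 ± 0.07. The smallest p-values belonged to KRT2 (0.43 ± 0.10), a late epidermal keratin, KRT75 (0.26 ± 0.06), a hair follicle keratin, and KRT23 (0.24 ± 0.06), each with a limma adjusted p of 0.22 and a signal below the median. KRT15, a basal-layer keratin, was at −0.32 ± 0.12 (adjusted p = 0.284).

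Among the 16 other intermediate filament genes, 9 were below 0 and 7 above, with a median of −0.04 that was −0.01 after cyclic loess. In the limma fit 0 passed, and at an unadjusted p under 0.05 1 was higher and 1 lower. Vimentin, VIM, the main intermediate filament protein of endothelium, was at 14.82 with control siRNA and 14.76 with ANRIL siRNA. Its difference was −0.06 ± 0.06 (limma adjusted p = 0.668) and turned to 0.00 after cyclic loess. NES, which encodes nestin, was at −0.09 ± 0.08 and at −0.01 after cyclic loess. The peripherin gene PRPH (0.19 ± 0.06, adjusted p = 0.249) and the neurofilament gene NEFM (−0.26 ± 0.10, adjusted p = 0.278) had the smallest p-values. At the trended prior as well, 0 of these 16 genes passed.

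Desmosomal and plakin genes, whose products tie intermediate filaments to junctions and to other filaments, were measured for all 18 listed. Of these, 11 were above 0 and 7 below, with a median of 0.04 that turned to −0.01 with arrays centred on their medians. In the limma fit 0 passed, and 2 were higher and 1 lower at an unadjusted p under 0.05. JUP, which encodes plakoglobin, a protein shared by desmosomes and endothelial adherens junctions, was at 9.23 with control siRNA and 8.98 with ANRIL siRNA. That difference was −0.25 ± 0.07 with no overlap of the groups (limma adjusted p = 0.229), and it was −0.18 after cyclic loess. The spectraplakin genes MACF1 and DST, in the brightest decile, were at −0.06 ± 0.07 and −0.08 ± 0.07, and both turned to values above 0 after cyclic loess (0.02 and 0.01). DSG3, a desmosomal cadherin of stratified epithelia, was dim and at 0.21 ± 0.08 (adjusted p = 0.279).

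Genes for proteins that bind, fold or turn over keratins were mostly bright, and 12 of 14 measured were below 0, with a median of −0.06. With cyclic loess that median was −0.01, and with repeated quantile normalization −0.00. In the limma fit 0 passed, and at an unadjusted p under 0.05 3 were lower and 0 higher. HSPB1, a small heat shock protein that associates with intermediate filaments, was at 12.72 with control siRNA and 12.45 with ANRIL siRNA, a difference of −0.26 ± 0.07 (limma adjusted p = 0.22). It passed with the trended prior (adjusted p = 0.013) but not with that prior after cyclic loess (0.0514). TGM2, a transglutaminase that crosslinks proteins, was at −0.19 ± 0.07 (adjusted p = 0.256). The brightest of the list, PNN and YWHAZ, were at −0.01 ± 0.06 each and turned to 0.07 and 0.06 after cyclic loess.

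Of 15 measured transcription factors known to act on keratin genes, such as the AP-1, ETS, SP1 and Krüppel-like families, 10 were below 0. In the limma fit 0 passed, with 2 lower and 0 higher at an unadjusted p under 0.05. Their median was −0.03 and lay above 0 with cyclic loess (0.01) and with repeated quantile normalization (0.02). ETS1, an ETS factor of endothelium, was at 10.56 with control siRNA and 10.29 with ANRIL siRNA (a difference of −0.28 ± 0.07, limma adjusted p = 0.22). It passed with the trended prior (adjusted p = 0.0374) but not with that prior after cyclic loess (0.106). ETS2 was at −0.18 ± 0.07 (adjusted p = 0.293). The AP-1 genes JUN and JUND, among the brightest, were at −0.03 ± 0.07 and 0.04 ± 0.07, and JUN turned to 0.05 after cyclic loess while JUND turned to −0.01 with arrays centred on their medians.

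**Figure D4:**
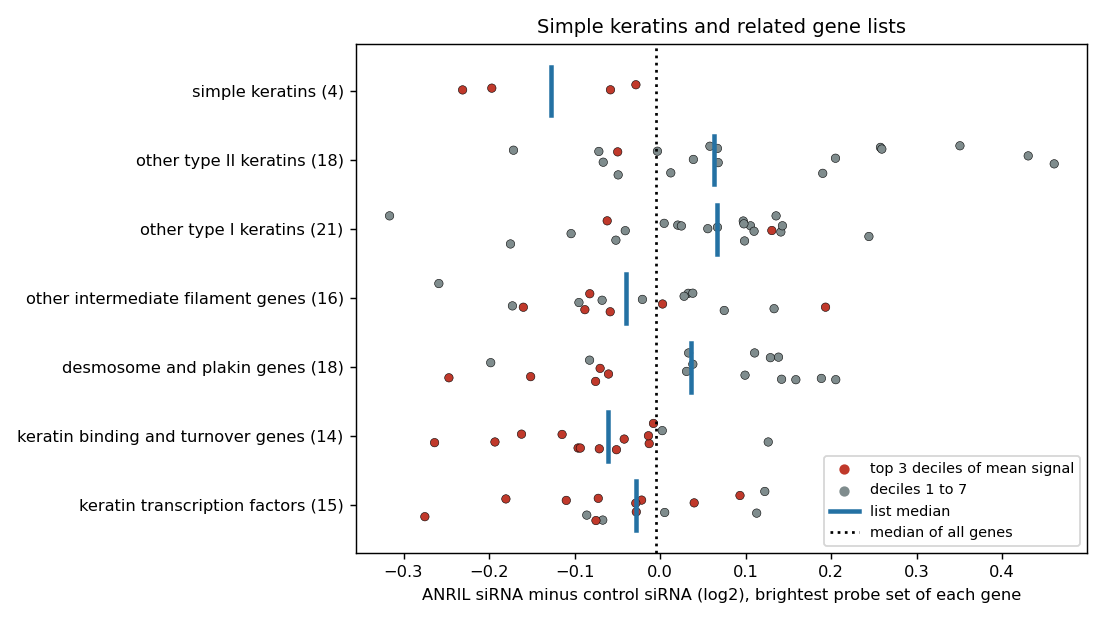
Each point is the difference of 1 gene (ANRIL siRNA minus control siRNA, log2, brightest probe set), red for the top 3 deciles of mean signal and grey for the rest; bars are list medians, numbers in brackets the measured genes, and the dotted line the median of all genes. In these deposited values the 4 simple keratins lie at or below −0.03, although KRT7 lies above 0 after cyclic loess, the medians of the other type I and type II keratins lie at 0.07 and 0.06, and red points lie mostly to the left of grey ones.

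Simple keratins also mark epithelium, mesothelium and amnion, so markers of those cells were read beside them. Of the 16 epithelial markers measured, 8 lay above the median signal and 8 below, among the latter EPCAM and CDH1, the defining adhesion molecules of epithelia, and the regulator GRHL2. Their mean level over the list was 6.06 to 6.15 in the controls and 6.20 to 6.21 with ANRIL siRNA, so the groups did not overlap and ANRIL siRNA was the higher. None of the 16 lay in the 2 brightest deciles, where KRT18 and KRT19 lie, and they ran from decile 1 to decile 8. The median difference of all probe sets was 0.04 in decile 1, 0.06 in decile 4, 0.05 in decile 6 and −0.03 in decile 8, which holds SPINT1. The list's median difference was 0.09, and 0.06 after cyclic loess. Of the 16, 11 were above 0 and 5 below, and 0 passed in the limma fit, with 4 higher and 0 lower at an unadjusted p under 0.05. EPCAM was at −0.02 ± 0.09 and CDH1 at 0.00 ± 0.07, while SPINT1 was at 0.34 ± 0.08 and ESRP1 at 0.30 ± 0.08 (limma adjusted p = 0.22 and 0.223). Among the others above the median signal, the claudin genes CLDN4 and CLDN7 were at 0.10 ± 0.06 and 0.08 ± 0.07 and CLDN3 at −0.11 ± 0.08, while MUC1, a mucin gene, and OVOL1, a transcription factor gene, were at 0.07 ± 0.08 and 0.20 ± 0.08. The protease gene ST14 was at −0.00 ± 0.07 and the polarity gene CRB3 at −0.13 ± 0.11.

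Of 8 mesothelial markers 3 lay above the median signal, with MSLN in the lowest decile, and the list's mean level was 5.74 to 5.85 in the controls and 5.89 to 5.94 with ANRIL siRNA. BNC1, the brightest of them, was at −0.15 ± 0.07, UPK1B at 0.10 ± 0.08 and LRRN4 at −0.11 ± 0.07, while the dimmer WT1 and ITLN1 were at 0.46 ± 0.12 and 0.15 ± 0.06. Of 11 amnion and trophoblast markers only GATA3 and HLA-G lay above the median, both in the brightest decile, and their differences of −0.07 ± 0.06 and −0.01 ± 0.06 turned to 0.01 and 0.07 after cyclic loess. HLA-G was read by a probe set ending in _x_at, which may also match other transcripts, so its signal may not be that of HLA-G alone. The smallest p-values of that list belonged to 2 dim genes, CDX2 (−0.20 ± 0.08) and GABRP (0.15 ± 0.08). Its mean level was 6.08 to 6.15 in the controls and 6.12 to 6.22 with ANRIL siRNA.

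Of the remaining marker lists, endothelial markers were lower on average, at 11.41 to 11.45 in the controls and 11.21 to 11.29 with ANRIL siRNA, with 13 of 14 below 0. Of these 14, 11 lay in the brightest decile, where 87.1% of all probe sets were below 0. Their median difference was −0.17, and −0.10 after cyclic loess. In the limma fit 0 passed, with 8 lower and 0 higher at an unadjusted p under 0.05, while 5 were lower with the trended prior and 3 with that prior after cyclic loess. Those with the smallest p-values were TIE1, an endothelial receptor gene, at −0.42 ± 0.06, and CLDN5, the claudin of endothelial tight junctions, at −0.34 ± 0.06 (limma adjusted p = 0.22 each). The brightest were VWF at −0.11 ± 0.07 and the adhesion gene ICAM2 at −0.29 ± 0.07. TIE1, CLDN5 and ICAM2 passed with the trended prior both before and after cyclic loess.

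The mean level of 14 smooth muscle and fibroblast markers was 6.91 to 6.98 in the controls and 6.99 to 7.02 with ANRIL siRNA. The brightest, the pericyte marker RGS5, was at −0.03 ± 0.06 and turned to 0.04 after cyclic loess, and the smooth muscle actin gene ACTA2 was at −0.26 ± 0.07 (limma adjusted p = 0.22). ACTA2 passed with the trended prior (limma adjusted p = 0.0388) but not with that prior after cyclic loess (0.137). ACTG2, CNN1 and COL1A1 were at 0.32 ± 0.11, 0.20 ± 0.11 and 0.15 ± 0.08, and MFAP5, a dim gene, was at 0.26 ± 0.08. DES at 0.03 ± 0.08 turned to −0.02 with arrays centred on their medians, and MYH11 and DCN were at −0.03 ± 0.09 and −0.05 ± 0.08. The mean level of 9 leukocyte markers was 5.89 to 5.95 in the controls and 5.99 to 6.14 with ANRIL siRNA. Of the 9, 8 were above 0 and 1 below, and 0 passed in the limma fit. Their median difference was 0.18, and 0.12 after cyclic loess. Only 3 lay above the median signal, the B cell marker CD79A at 0.26 ± 0.08, the T cell marker CD3E at 0.22 ± 0.08 and ITGAM at 0.22 ± 0.10. The 1 below 0 was PTPRC, at −0.07 ± 0.09 in decile 2. The part of other cells in the keratin signal was not tested, and fewer cells with a keratin cannot be told apart from less keratin RNA per cell in these bulk samples.

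The genes whose values over the 6 arrays were most like those of each keratin were ranked by Pearson r among 13017 genes above the median signal, as a description without a test. With this many genes and 6 arrays, values of r near 1 arise for any profile, and the difference between the groups itself went with signal. For KRT18 they were the peroxidase gene PXDN (r = 0.999), the desaturase gene SCD5 (0.997), CPT1A, the enzyme of fatty acid entry into mitochondria (0.996), and SQOR (0.996), with differences of −0.12, −0.25, −0.19 and −0.22. For KRT19 they were TIMM13, a mitochondrial import chaperone (0.995), CASTOR1, an arginine sensor (0.992), NIBAN2 (0.991) and MAGI3 (0.990), with differences of −0.06, −0.30, −0.14 and −0.19. For KRT8 the nearest were the nucleoporin gene NUP98 (0.998), ENTPD6 (0.985), TMBIM6 (0.983) and TOPBP1 (0.983), each highest in the array numbered 2 of both groups, as KRT8 was. For KRT7 they were CCM2, a cerebral cavernous malformation gene of endothelium (0.999), SLC25A28 (0.995), ENOX1 (0.994) and TMED1 (0.991). No gene was among the 4 nearest of more than 1 keratin.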

How the data were processed

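Expression was measured in 6 HUVEC samples, 3 per siRNA, on Affymetrix Human Genome U133 Plus 2.0 arrays. The authors deposited log2 values for 54675 probe sets, and the submitters' processing notes name RMA, affy and limma, with versions not given in the sources used here. The sources used here name no genome build. Of the deposited probe sets, 62 were control probe sets and left out. Symbols came from the platform annotation, which can be old, updated through Entrez identifiers in RefSeq (GRCh38.p14): 41091 probe sets had 1 symbol, 1801 several and 11721 none. Each of 19775 genes was represented by its brightest probe set. Differences were fitted with limma 3.58.1 in R 4.3.3 (lmFit, eBayes with a constant prior, no replicate term) and adjusted over all 54613 probe sets, two-sided. The number of arrays limits the precision.

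The members and lists were chosen with earlier results of these data known. Named were all member probe sets, from each list the 2 brightest genes and the 2 of smallest p, markers of other cells above the median signal, and the 4 genes of highest r per member. CDH1, EPCAM, GRHL2, MSLN, PTPRC, PECAM1 and CDH5 were named outside that rule, as defining markers. The alternatives were array weights, a replicate block, a trended robust prior, repeated quantile normalization, cyclic loess and median centring of the deposited probe set values, a filter at the median signal, 1 probe set per gene, other probe set rules and each array left out. Combinations with the trended prior were chosen after seeing the data.

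The deviations of same-numbered arrays of the 2 groups had r = 0.06, 0.14 and −0.04 over all probe sets for numbers 1, 2 and 3. Control replicate 1 and ANRIL siRNA replicate 3, which differ in number, also had r = 0.14. The numbers were therefore not taken to pair the samples. The design text speaks of 3 sets of cells and does not say whether an array number marks such a set, so a pairing cannot be told from the labels.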

Additional observations from a re-analysis of the deposited data

How the results depend on the processing

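KRT18 and KRT19 kept their sign under every alternative run, at −0.10 to −0.25 over 23 alternatives and −0.12 to −0.30 over 24. Not all of these could change the difference. The replicate block, the trended prior, the signal filter and 1 probe set per gene left it the same. Averaging did so for KRT18, which has 1 probe set, and the rule against _s_at or _x_at did so for KRT19. Each array left out counts under both priors. KRT18 passed under 2 of its 23 alternatives, the trended robust prior (−0.20) and the same prior without ANRIL siRNA replicate 2. KRT7 turned to 0.024 with repeated quantile normalization and 0.020 with cyclic loess, each with either prior, to 0.019 when its probe sets were averaged, and to 0.103 at its brightest probe set not ending in _s_at or _x_at. For KRT8 and KRT18 no such probe set exists, so that alternative gave no value. Without 1 array each, KRT7 lay between −0.124 and −0.017, KRT8 between −0.118 and 0.041 (0.032 when ANRIL siRNA replicate 1 and 0.00067 when ANRIL siRNA replicate 3 was left out), KRT18 between −0.218 and −0.164, and KRT19 between −0.299 and −0.175, with the same values under either prior. With the replicate number as a block, which the deviations do not bear out as a pairing, the adjusted p was 0.266 for KRT18, 0.263 for KRT19, 0.843 for KRT8 and 0.73 for KRT7, with differences as before, and 0 probe sets were called. Whether the numbers mark shared sets of cells is not given in the sources used here. If they do, KRT8 is more precise than reported, with a residual SD of 0.027 in place of 0.145. Its SE is then 0.062 and its 95% interval −0.18 to 0.12. The interval of KRT18 with that block, −0.35 to −0.05, overlaps that of KRT8, and a difference between these genes was not tested. The number of probe sets called was 344 with the trended robust prior, 78 with that prior after cyclic loess, 42 with it after repeated quantile normalization, 4 with median centring and 1 above the median signal. With the trended prior and 1 array left out it was 4 to 885, namely 4 when control replicate 2 was left out, 38 for control replicate 1, 38 for ANRIL siRNA replicate 1, 96 for ANRIL siRNA replicate 3, 450 for control replicate 3 and 885 for ANRIL siRNA replicate 2. The cause was not tested. The dim probe sets of KRT7 and KRT19 had values below the array median, and the part of low signal in their differences was not tested.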

Other observations

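As values set beside those above, the log2 ratio of a type I to a type II keratin within each array was compared between the groups, a comparison chosen after the data had been seen and given without a test. The ratio of KRT18 to KRT8 changed by −0.17, with an SD of 0.08 among the controls and 0.15 among the ANRIL siRNA arrays, and the groups overlapped, although the ratio was lower with ANRIL siRNA in each of the 3 pairs of same-numbered arrays, which are not known to be pairs. That of KRT18 to KRT7 changed by −0.14 and also overlapped. The ratio of KRT19 to KRT8 changed by −0.20 and that of KRT19 to KRT7 by −0.17, both without overlap in the deposited values. After cyclic loess the groups overlapped for KRT19 to KRT8, though not for KRT19 to KRT7. KRT19 and KRT8 were then at 9.41 and 7.86 in control replicate 2 and at 9.23 and 7.60 in ANRIL siRNA replicate 1. How often other gene pairs lack overlap was not counted. The changes given for these ratios use the deposited values, where the median difference was −0.08 in decile 10, −0.07 in decile 9 and −0.03 in decile 8. KRT18 and KRT7 lie in decile 10, KRT19 in decile 9 and KRT8 in decile 8. The part of that trend with signal in the ratios was not tested. KRT18 to KRT19, the ratio of the type I chains, changed by 0.03.

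Probe sets annotated to pseudogenes of KRT8 and KRT19 did not move in 1 direction. Only KRT8P12 and KRT19P2 had any, and none was annotated to a pseudogene of KRT18. Of the 2 for KRT8P12, 222060_at was at 7.22, 7.12 and 7.11 in the controls and 7.08, 6.88 and 7.09 with ANRIL siRNA, a difference of −0.13 ± 0.08 (SE, limma adjusted p = 0.436), and 230116_at was at 0.22 ± 0.09 (limma adjusted p = 0.312). The 1 assigned to KRT19P2 alone was below the median signal and at 0.07 ± 0.09. Also below it was 217350_at, assigned to KRT19P2 and MIR492, at 0.20 ± 0.10 (limma adjusted p = 0.373). None passed.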
